A study of Mus musculus with 6 samples.

Results

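The chemokine receptors of myeloid cells examined here were 9 genes, Ccr1, Ccr2, Ccr3, Ccr7, Ccrl2, Cx3cr1, Cxcr2, Cxcr3 and Cxcr4, taken by gene symbol from the 34745 rows of the gene table. Each symbol matched 1 row. They were measured by RNA sequencing of monocytic myeloid-derived suppressor cells (M-MDSCs), immature monocyte-like cells that restrain T cells, in 3 mTOR-/- and 3 WT libraries. The comparison asks how loss of mTOR, a kinase that couples nutrients to cell growth, changed the transcripts of these receptors.

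Both groups were labelled as C57BL/6 bone marrow, and the cells were induced in culture with GM-CSF and IL-6 before sorting by flow cytometry as CD11b+ Ly6G- Ly6C high cells. The mTOR-/- libraries came from Lyz-mTOR mice, which carry mTOR flox/flox alleles and Lyz-Cre. Lyz-Cre deletes floxed alleles in cells that express lysozyme M, and cells of other origins keep mTOR. The WT mice were bought from a supplier, with no mention of Cre or floxed alleles in them. The age of the mice, and whether each library stands for 1 mouse, were not given in the sources used here, so the p-values measure the spread between these libraries. Library totals were 12317507 to 12903191 counts in mTOR-/- and 14066578 to 14768126 in WT. The paper states that loss of mTOR in MDSCs was verified, and reads by exon were not examined here. Counts of Mtor itself were 883, 983 and 908 in mTOR-/- and 980, 875 and 929 in WT, a log2 fold change of 0.15 (SE 0.11, edgeR adjusted p = 0.442), so whole-gene counts of Mtor did not separate the labels. Lyz2, the gene that carries Lyz-Cre, did separate them, with 14675, 11695 and 12718 counts in mTOR-/- and 32743, 57236 and 50648 in WT (log2 fold change -1.68, edgeR adjusted p = 0.00255). H2-Ea-ps, an MHC class II gene that C57BL/6 mice are known not to transcribe, had 265, 219 and 270 counts in mTOR-/- and 0 in every WT library, which at this locus goes against the strain label of the libraries labelled mTOR-/-. Strain differences and mTOR genotype cannot be told apart in any comparison below. Correlations of log2 values between libraries were 0.978 to 0.981 among WT, 0.952 to 0.973 among mTOR-/- and 0.934 to 0.967 between the groups. The sorted phenotype was visible for CD11b, since Itgam reached 832 CPM in mTOR-/- and 927 CPM in WT (CPM, counts scaled to library size). Ly6c2 was at 87.3 CPM in mTOR-/- and 174 CPM in WT (log2 fold change -0.999, just short of 2-fold, edgeR adjusted p = 0.0426). Ly6g, which the sort selects against, was at 13.3 CPM in mTOR-/- and 2.77 CPM in WT (log2 fold change 2.27, edgeR adjusted p = 0.0365). Over the 6 fits without 1 library, its log2 fold change was 1.83 to 3.02, and it passed the adjusted p only without WT replicate 3 (adjusted p = 0.0186, otherwise up to 0.127).

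Chemokine receptors are membrane proteins that cross the membrane repeatedly and, when a chemokine binds outside the cell, activate inhibitory G proteins inside it, so that the cell moves up the chemokine gradient. In bone marrow, Cxcr4 holds myeloid cells near stromal cells that make Cxcl12, Cxcr2 draws neutrophils into blood, and Ccr2 draws monocytes out toward Ccl2 and Ccl7. Ccr1 and Ccr3 bind inflammatory CC chemokines, Cx3cr1 marks patrolling monocytes and macrophages, Cxcr3 marks activated T cells, and Ccr7 leads mature dendritic cells to lymph nodes. Ccrl2 is an atypical receptor that binds the chemoattractant chemerin without the usual G protein signal.

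The feature that sets Ccrl2 apart is legible in the coding sequence. Most chemokine receptors hold an aspartate, an arginine and a tyrosine in a row at the inner end of the third membrane helix, where the G protein is contacted. The windows of 33 bases around these codons, read from GENCODE M21 transcripts (GRCm38, coding strand), follow for 8 of the genes, with the 3 codons in capitals.
Ccr1 (chr9:123964084-123964116, minus strand): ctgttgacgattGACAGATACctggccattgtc
Ccr3 (chr9:124029017-124029049, plus strand): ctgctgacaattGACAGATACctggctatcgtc
Ccr7 (chr11:99145618-99145650, minus strand): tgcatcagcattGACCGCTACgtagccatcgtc
Ccrl2 (chr9:111056015-111056047, minus strand): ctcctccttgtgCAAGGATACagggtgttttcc
Cx3cr1 (chr9:120051936-120051968, minus strand): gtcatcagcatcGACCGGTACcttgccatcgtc
Cxcr2 (chr1:74158760-74158792, plus strand): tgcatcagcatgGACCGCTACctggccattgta
Cxcr3 (chrX:101732596-101732628, minus strand): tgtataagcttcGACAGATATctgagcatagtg
Cxcr4 (chr1:128589500-128589532, minus strand): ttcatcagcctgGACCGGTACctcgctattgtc

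In 7 of these 8 genes the capitals read as codons for aspartate, arginine and tyrosine. Ccrl2 holds codons for glutamine, glycine and tyrosine instead, and its window shared 12 of 33 bases with that of Ccr7. The closest window to that of Ccr7 was the one of Cxcr2, with 28 of 33 bases, followed by Cx3cr1 with 27 and Cxcr4 with 25. The windows shown lie in coding exons.

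Of the 9 receptors, 7 had enough reads to test among 12537 genes, and 1 of them, Ccr7, was a differentially expressed gene (DEG), up-regulated in mTOR-/- M-MDSCs. DEGs had to reach an edgeR adjusted p below 0.05 together with a 2-fold difference in either direction, the thresholds of the study's methods. Over all tested genes, 1.69% were DEGs, 1.04% of them up-regulated and 0.654% down-regulated as shares of the genes tested. Cxcr4 was lower in mTOR-/- M-MDSCs and passed the adjusted p but not the fold threshold, so 2 of the 7 receptors passed the adjusted p alone, against 4.04% of all tested genes. Groups did not overlap for 3 of the 7 receptors (Ccr7, Ccrl2 and Cxcr4), against 28.4% of all tested genes. The log2 fold change was above 0 for 4 receptors and below 0 for 3, with a median of 0.02, and the median over all tested genes was 0.0049. Cx3cr1 and Cxcr3 had too few reads to test.

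**Figure D1:**
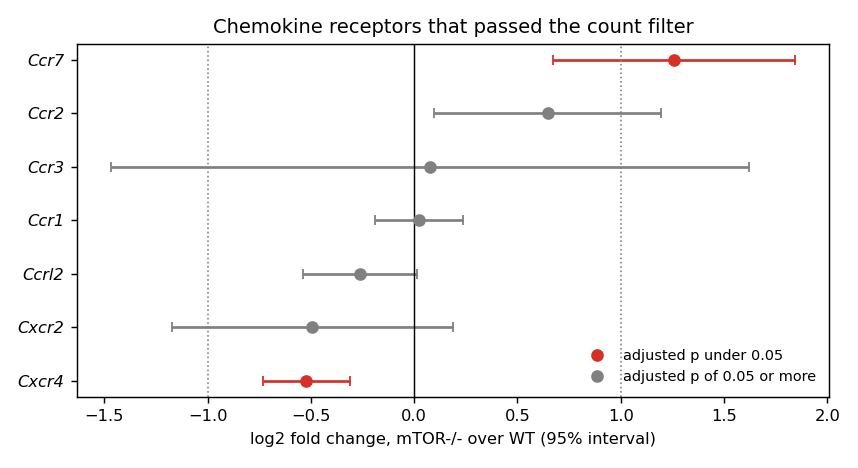
Log2 fold change of each tested receptor in mTOR-/- against WT M-MDSCs (horizontal axis), with its 95% confidence interval from the edgeR fit. Ccr7 lies at 1.26 and Cxcr4 at -0.52, and the intervals of the other 5 receptors either include 0 or, for Ccr2, start at 0.10 with an adjusted p of 0.174.

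Ccr7 (ENSMUSG00000037944, chromosome 11, 99144196 to 99155077) was the up-regulated receptor. It stood at 58.3, 57.6 and 60.2 CPM in the mTOR-/- libraries and at 13.6, 29.4 and 30.6 CPM in the WT libraries. The mTOR-/- libraries lay close together and above every WT library, and WT replicate 1 was the lowest of the 6. The means were 58.7 ± 1.36 CPM in mTOR-/- and 24.5 ± 9.52 CPM in WT (SD, n = 3 each). The log2 fold change was 1.26 (SE 0.26, 95% interval 0.67 to 1.84, edgeR adjusted p = 0.0314), a fold of 2.39 with an interval of 1.59 to 3.59. The counts behind it were 715, 746 and 787 in mTOR-/- and 191, 431 and 430 in WT. Without WT replicate 1 the log2 fold change was 0.96 (edgeR adjusted p = 0.0145), under the fold of 2, and each of the other 5 fits that left out 1 library gave an adjusted p of 0.0605 to 0.0858.

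The genes whose profile over the 6 libraries lay nearest to that of Ccr7 were then identified. The distance between log2 CPM profiles, each centred on the gene's mean, was smallest for Fscn1 (0.183), Stap2 (0.224) and Amica1 (0.333) among 10620 other genes with a mean of at least 50 counts. Fscn1 encodes fascin, an actin-bundling protein of mature dendritic cells, Stap2 an adaptor of cytokine signalling, and Amica1 an adhesion molecule of leukocytes. Fscn1 had 298, 343 and 359 counts in mTOR-/- and 90, 204 and 211 in WT, again lowest in WT replicate 1. Its log2 fold change of 1.14 missed the threshold (edgeR adjusted p = 0.0557). Stap2 had a log2 fold change of 1.26 and also missed it (edgeR adjusted p = 0.0918). Amica1 was a DEG with a log2 fold change of 1.29 (edgeR adjusted p = 0.0461). These 3 genes were picked for a profile like that of Ccr7, so their values are a description.

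**Figure D2:**
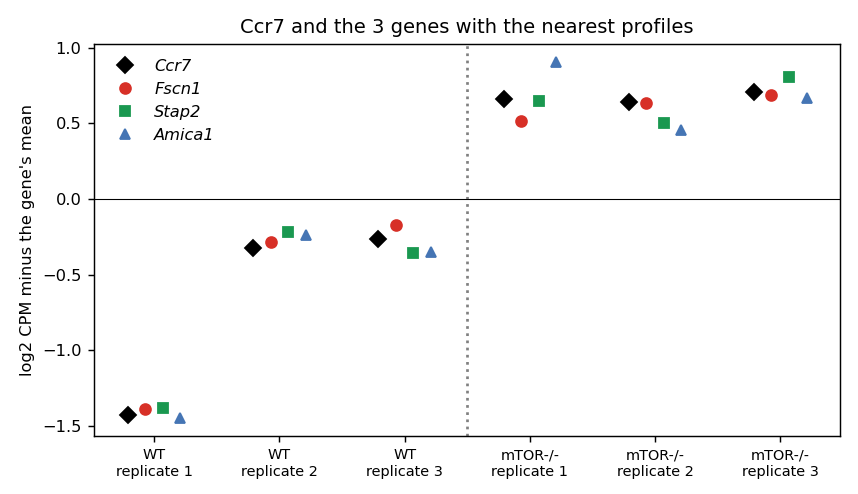
Log2 CPM minus the gene's own mean (vertical axis) for Ccr7, Fscn1, Stap2 and Amica1 in each of the 6 libraries. All 4 genes lie above their mean in the mTOR-/- libraries and below it in the WT libraries, and WT replicate 1 is the lowest library for each.

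The list of mature migratory dendritic cell markers leaves out Ccr7. It was chosen with earlier results of these data known, so its values beside those of all tested genes are a description. Of these 10 genes, 9 had a log2 fold change above 0, with a median of 1.08 against 0.0049 over all tested genes. Fscn1, the gene with the profile nearest to that of Ccr7, is among the 10. Groups did not overlap, in either direction, for 7 of the 10, against 28.4% of all tested genes. Il4i1 was 1 of these 7 and was lower in mTOR-/-. In the test, 1 of the 10 was a DEG, against 1.69% of all tested genes: Cacnb3, a calcium channel subunit, with a log2 fold change of 1.5 (edgeR adjusted p = 0.0483). Ccl22, a chemokine that such cells secrete, averaged 356 ± 27.7 CPM in mTOR-/- and 175 ± 88.3 CPM in WT (SD, n = 3 each; log2 fold change 1.03, edgeR adjusted p = 0.126). DESeq2 and edgeR's exact test each called 4 of the 10, and of the 6 fits without 1 library only the one without WT replicate 1 kept Cacnb3 past the adjusted p (0.04996, otherwise up to 0.114). Il4i1 was at a log2 fold change of -0.11 (edgeR adjusted p = 0.484) and Marcks at 0.17 (edgeR adjusted p = 0.576). The summed level of the list was 806 to 821 CPM in mTOR-/- and 422 to 651 CPM in WT. Ccl22, the most abundant gene of the list, stood at 75.4 CPM in WT replicate 1 and at 204 and 245 CPM in the other WT libraries. Cacnb3 stood at 7.61 CPM in WT replicate 1 and at 21.8 and 20.8 CPM in the others. Il4i1 and Relb were not lowest in WT replicate 1. On the list of other dendritic cell markers, 1 of 7 tested genes was a DEG, against 1.69% of all tested genes. It was Clec10a (log2 fold change 1.48, edgeR adjusted p = 0.00724). The sum of this list was 457 to 593 CPM in mTOR-/- and 272 to 369 CPM in WT. The most abundant others were Irf4 (log2 fold change 0.39, edgeR adjusted p = 0.0325) and Itgax (0.92, adjusted p = 0.0987). Itgax stood at 52.0 CPM in WT replicate 1 and at 117 and 103 CPM in the other WT libraries, while Irf4 was not lowest in WT replicate 1. The part of these cells in the Ccr7 difference was not tested. In such bulk libraries, more cells of a type and more RNA per cell cannot be told apart.

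Cxcr4 (ENSMUSG00000045382, chromosome 1, 128588199 to 128592293), the receptor that retains cells in marrow, was lower in mTOR-/- M-MDSCs. It stood at 115, 100.1 and 99.0 CPM in mTOR-/- and at 151, 151 and 149 CPM in WT. The WT libraries were nearly level, and every mTOR-/- library lay below them. The means were 105 ± 8.72 CPM in mTOR-/- and 150.1 ± 1.13 CPM in WT (SD, n = 3 each). The log2 fold change was -0.52 (SE 0.09, 95% interval -0.73 to -0.31, edgeR adjusted p = 0.0179), 1.44-fold lower, on counts of 1294 to 1406 in mTOR-/- and 2089 to 2209 in WT. The adjusted p was 0.0263 to 0.0413 when an mTOR-/- library was left out and 0.0745 to 0.0867 when a WT library was left out. Of 8 basophil and mast cell markers, 4 were down-regulated DEGs in the same libraries (Cpa3, Hdc, Kit and Mcpt8), against 0.654% of all tested genes, and the sum was 553 to 629 CPM in mTOR-/- and 1560 to 1650 CPM in WT. Cpa3, the mast cell carboxypeptidase, had a log2 fold change of -2.37 (edgeR adjusted p = 9.53e-05), and the most abundant marker that was no DEG, Gata2, was at -0.79 (edgeR adjusted p = 0.00973). Fcer1a was at 0.45, Ms4a2 at -0.65 and Prss34 at -0.57, and none of these 3 passed (edgeR adjusted p = 0.61, 0.457 and 0.234). Mcpt8 passed the adjusted p in 2 of the 6 fits without 1 library, those without mTOR-/- replicate 2 or WT replicate 2 (adjusted p 0.0242 to 0.152 over the 6). The part of these cells in the Cxcr4 difference was not tested.

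The Cxcr4 promoter is shown because its gene is the second receptor past the adjusted p threshold. Of the 9 receptors, 8 had a promoter in the RefSeq table used (GRCm38.p6, 250 bases before to 50 after the start), and Ccr7 is named only. The 300 bases of Cxcr4 have a GC content of 59.3% and follow in lower case, on the minus strand.
Cxcr4 promoter (chr1:128592250-128592549): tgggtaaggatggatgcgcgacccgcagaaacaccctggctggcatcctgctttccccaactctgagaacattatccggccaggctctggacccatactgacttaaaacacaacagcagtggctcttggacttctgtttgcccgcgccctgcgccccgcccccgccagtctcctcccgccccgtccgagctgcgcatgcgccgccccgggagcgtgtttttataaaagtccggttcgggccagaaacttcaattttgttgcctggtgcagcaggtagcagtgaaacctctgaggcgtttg

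Exact letters of 3 motifs were searched for on both strands. The FOXO letters TGTTTAC were in none of the 8 receptors' promoters and in 3.65% of all 32851 promoters. The PU.1 letters GAGGAAGT were in that of 1 receptor, Cxcr3, and in 3.2% of all promoters. The KLF letters CCACACCC were in none of the receptors and in 3.56% of all promoters. These are letter matches in a window and say nothing of a factor's binding.

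Ccr2 (ENSMUSG00000049103, chromosome 9, 124101950 to 124113557), the receptor for monocyte exit, did not pass the test. It stood at 15.3, 12.04 and 15.2 CPM in mTOR-/- and at 6.75, 12.09 and 8.33 CPM in WT. WT replicate 2 lay level with mTOR-/- replicate 2, so the groups overlapped. The means were 14.2 ± 1.87 CPM in mTOR-/- and 9.06 ± 2.74 CPM in WT (SD, n = 3 each). The log2 fold change was 0.65 (SE 0.24, 95% interval 0.10 to 1.20, edgeR adjusted p = 0.174). Of its ligands, Ccl2 was a down-regulated DEG, at 3.65 ± 1.20 CPM in mTOR-/- and 11.2 ± 1.28 CPM in WT (SD, n = 3 each; log2 fold change -1.62, SE 0.29, edgeR adjusted p = 0.0176). Ccl7 was also a down-regulated DEG, on 1 to 5 counts in mTOR-/- libraries and 17 to 37 in WT (log2 fold change -3.21, SE 0.71, edgeR adjusted p = 0.0399). Ccl8 and Ccl12 had no counts in any library. Monocyte markers gave 1 DEG among 9 tested, against 1.69% of all tested genes. It was F13a1, up-regulated (log2 fold change 1.12, edgeR adjusted p = 0.0223), while 5 of the 9 were below 0. The adjusted p alone was passed by 3 higher markers and 1 lower one, against 4.04% of all tested genes. Beside F13a1, the higher ones were Cd14 (log2 fold change 0.95, edgeR adjusted p = 0.00128) and Csf1r (0.50, edgeR adjusted p = 0.0136). The lower one was Ly6c2, at -0.999 and just short of 2-fold (edgeR adjusted p = 0.0426). DESeq2 called 2 genes of the list. F13a1 passed the adjusted p in 2 of the 6 fits without 1 library, those without mTOR-/- replicate 2 or 3 (adjusted p 0.00672 to 0.105 over the 6). The sum of the list was 1557 to 1958 CPM in mTOR-/- and 1650 to 1828 CPM in WT.

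Ccr1 (ENSMUSG00000025804, chromosome 9, 123962126 to 123968692), a receptor for Ccl3, Ccl5, Ccl6 and Ccl9, was the most abundant of the 9 in every library and did not pass the test. It stood at 599.7, 505 and 562 CPM in mTOR-/- and at 549, 557 and 533 CPM in WT, so the groups overlapped. The means were 556 ± 47.7 CPM and 546 ± 12.2 CPM (SD, n = 3 each). The log2 fold change was 0.02 with a 95% interval of -0.19 to 0.24 (edgeR adjusted p = 0.911). Among the abundant ligands, Ccl6 averaged 2757 CPM in mTOR-/- and 2897 CPM in WT (edgeR adjusted p = 0.834), and Ccl9 averaged 1342 CPM and 1666 CPM (edgeR adjusted p = 0.216).

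Cxcr2 (ENSMUSG00000026180, chromosome 1, 74153989 to 74161246), the neutrophil receptor for Cxcl1, Cxcl2, Cxcl3 and Cxcl5, was low and variable. It stood at 11.1, 6.25 and 16 CPM in mTOR-/- and at 13.5, 15.4 and 17.9 CPM in WT. The mTOR-/- libraries spanned a wider range than the WT libraries, and mTOR-/- replicate 3 lay among them. The means were 11.1 ± 4.87 CPM and 15.6 ± 2.23 CPM (SD, n = 3 each), with a log2 fold change of -0.49 (SE 0.30, 95% interval -1.17 to 0.19, edgeR adjusted p = 0.387). Without 1 library it ranged from -0.86 to -0.22 and never passed. Its ligand Cxcl3 was at 2025 CPM in mTOR-/- and 1875 CPM in WT (edgeR adjusted p = 0.594). Neutrophil markers gave 2 DEGs among 9, against 1.69% of all tested genes. Ly6g was up-regulated and Ltf down-regulated (log2 fold change -2.04, edgeR adjusted p = 0.00214). The adjusted p alone was passed by 2 higher markers and 2 lower ones, against 4.04% of all tested genes. The sum was 2402 to 2732 CPM in mTOR-/- and 2155 to 2483 CPM in WT. Mmp8 led it, at 1565 CPM in mTOR-/- and 1238 CPM in WT (edgeR adjusted p = 0.18).

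Ccrl2 (ENSMUSG00000043953, chromosome 9, 111054486 to 111057519) was lower in mTOR-/- libraries by less than the test could call. It stood at 38.2, 38.8 and 44.8 CPM in mTOR-/- and at 45.7, 52.4 and 48.1 CPM in WT. The groups did not overlap, but mTOR-/- replicate 3 and WT replicate 1 were within about 1 CPM of each other. The log2 fold change was -0.26 (SE 0.12, 95% interval -0.54 to 0.01, edgeR adjusted p = 0.256). Rarres2, which encodes its ligand chemerin, had no counts in any library.

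Ccr3 (ENSMUSG00000035448, chromosome 9, 124021971 to 124031689), the eosinophil receptor for eotaxins, had 6, 25 and 9 counts in mTOR-/- and 21, 12 and 9 in WT. The libraries mixed freely across groups, and the log2 fold change of 0.08 had a 95% interval of -1.47 to 1.62 (SE 0.69, edgeR adjusted p = 0.965), so a difference was not detectable at this depth. Eosinophil markers gave 1 down-regulated DEG among 4 tested, against 0.654% of all tested genes. It was Prg2 (log2 fold change -1.09, edgeR adjusted p = 0.00899). The sum of the list was 46.2 to 72.5 CPM in mTOR-/- and 99.7 to 116 CPM in WT.

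Cx3cr1 (ENSMUSG00000052336, chromosome 9, 119901616 to 120068283) had no counts in mTOR-/- and 1, 4 and 0 counts in WT. Cxcr3 (ENSMUSG00000050232, chromosome X, 101731535 to 101734269) had no counts in any library. A count of 0 allows up to 3 counts, which is 0.233 to 0.244 CPM in mTOR-/- and 0.203 to 0.213 CPM in WT, and this limit covers counting error only. No difference was detectable for either gene at this depth. T and NK cell markers were at or near 0 in the same libraries, with Cd3e, Cd4, Cd8a and Ncr1 at 0. Among 1 tested, 0 were DEGs by all 3 tools. An unadjusted edgeR p under 0.05 was found for 0 of it, against 2657 of all 12537 genes tested. The summed list was at 0.978 to 4.01 CPM in mTOR-/- and 2.19 to 4.90 CPM in WT. Cxcl10, a ligand of Cxcr3, was an up-regulated DEG at 6.55 ± 2.0 CPM in mTOR-/- and 1.09 ± 0.614 CPM in WT (SD, n = 3 each; log2 fold change 2.57, SE 0.50, edgeR adjusted p = 0.0243), and the ligands Cxcl9 and Cxcl11 had no counts.

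**Figure D3:**
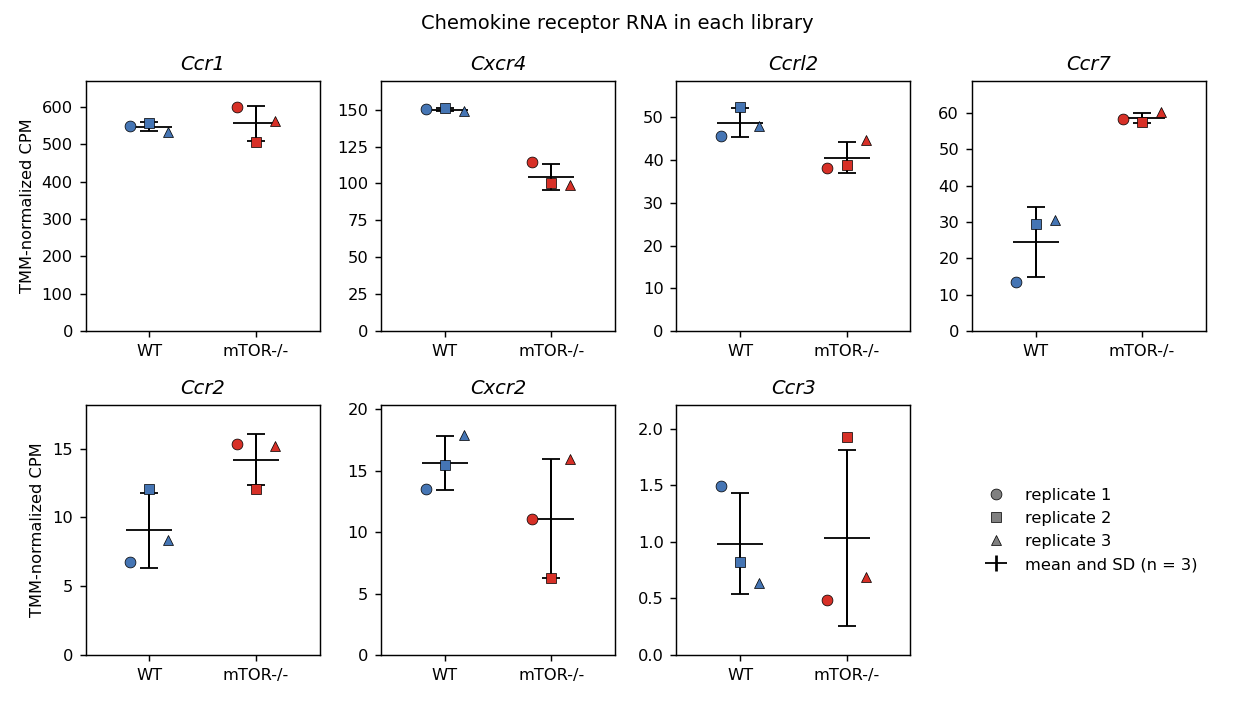
Normalised CPM (vertical axis) of the 7 tested receptors in each library (points, shaped by replicate), with the mean and SD of each group (n = 3). Ccr7 lies higher in all 3 mTOR-/- libraries, Cxcr4 and Ccrl2 lie lower in all 3, and the groups overlap for Ccr1, Ccr2, Ccr3 and Cxcr2.

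To order the levels of the receptors, counts were set per length as RPKM, the library-scaled count divided by the annotated exon length. Ccr1 led in both groups at 196 ± 16.8 RPKM in mTOR-/- and 193 ± 4.29 RPKM in WT (SD, n = 3 each), followed by Cxcr4 at 57.8 ± 4.82 RPKM and 82.9 ± 0.622 RPKM. The next places changed between groups. Ccr7 was at 29.6 ± 0.681 RPKM in mTOR-/-, above Ccrl2 at 15.6 ± 1.38 RPKM, and the libraries did not overlap. In WT, Ccr7 was at 12.4 ± 4.81 RPKM, below Ccrl2 at 18.7 ± 1.3 RPKM, again with no overlap. Cxcr2 was at 3.64 ± 1.59 RPKM and Ccr2 at 2.10 ± 0.276 RPKM in mTOR-/-, where the libraries overlapped. In WT, Cxcr2 at 5.12 ± 0.730 RPKM lay above Ccr2 at 1.34 ± 0.405 RPKM with no overlap. Of the 7 tested receptors, Ccr3 was last at 0.316 ± 0.238 RPKM in mTOR-/- and 0.301 ± 0.137 RPKM in WT. The annotated exon length covers all transcripts of a gene, 6760 bases over 4 transcripts for Ccr2 and 3048 over 2 for Cxcr2. The order of the levels depends on this length and is a description, with no test.

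**Figure D4:**
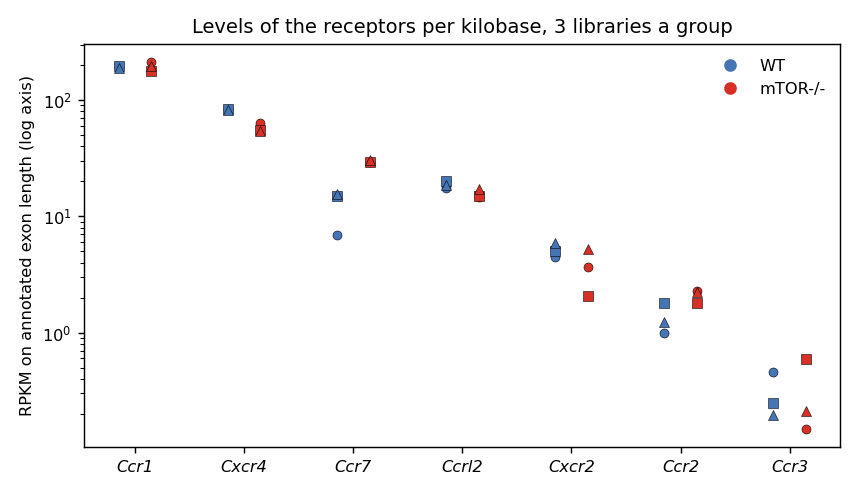
RPKM of the 7 tested receptors, on a log axis, in each mTOR-/- and WT library. Ccr1 and Cxcr4 hold the top places in both groups, and Ccr7 lies above Ccrl2 in mTOR-/- and below it in WT.

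Of all reads assigned to the 9 receptors, Ccr1 took 67.7 to 71.6% in every library. The share of Cxcr4 was 12.4 to 13.9% in mTOR-/- and 18.4 to 19.3% in WT, and that of Ccr7 was 6.96 to 7.98% in mTOR-/- and 1.74 to 3.89% in WT. Together the 9 receptors took 0.0728 to 0.0834% of all counts. Ratios of raw counts within a library do not depend on the scaling between libraries, but they are not per length, so only their difference between groups is read. The count of Cxcr4 was 7.48, 8.31 and 6.50 times that of Ccr2 in mTOR-/- and 22.3, 12.5 and 17.9 times in WT, a log2 difference of -1.20. Cxcr2 was 0.723, 0.519 and 1.05 times Ccr2 in mTOR-/- and 2.0, 1.28 and 2.15 times in WT, a log2 difference of -1.26. Ccr1 was 39.1, 41.9 and 36.9 times Ccr2 in mTOR-/- and 81.3, 46.1 and 64.0 times in WT, a log2 difference of -0.66. No group overlapped for these 3 ratios, and the two-sided exact permutation test gave p = 0.1 for each (adjusted p = 0.1 over 4 ratios), the smallest p that 3 against 3 allows. They share Ccr2, so they are not independent. The fourth ratio, Cx3cr1 to Ccr2, rests on 0 to 4 counts of Cx3cr1 and is not read.

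Ccr1, Ccr3 and Ccr2 lie near one another on chromosome 9, between 123962126 and 124113557, and their log2 fold changes were 0.02, 0.08 and 0.65. Of the 9 receptors, 5 lie on chromosome 9, and Ccr7 and Cxcr4 lie elsewhere. Cxcr2 shares 1.81% of its 75-base stretches with other genes, Ccr2 1.16% and Cx3cr1 0.113%. Reads from such stretches may be split between copies.

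Of 15 other chemokine receptors, 2 were tested, and 0 were DEGs by edgeR, DESeq2 or edgeR's exact test. An unadjusted edgeR p under 0.05 was found for 1 of the 2, against 2657 of all 12537 genes tested. Ccr4, the receptor of Ccl22 and Ccl17, was at 3.89 ± 1.35 CPM in mTOR-/- and 1.28 ± 0.772 CPM in WT (SD, n = 3 each; log2 fold change 1.59, edgeR adjusted p = 0.156). Of 25 ligands, 16 were tested, with a median log2 fold change of 0.02. Of these 16, 1 was up-regulated (Cxcl10), against 1.04% of all tested genes. Down-regulated were 2 (Ccl2 and Ccl7), against 0.654%. Over the 6 fits without 1 library, Ccl2 passed the adjusted p in 3, Cxcl10 in 2 and Ccl7 in 1. The Ccr7 ligands Ccl19 and Ccl21a and the Cxcr4 ligand Cxcl12 had no counts in any library. Macrophage, B cell and plasmacytoid dendritic cell markers gave 0 DEGs by all 3 tools. Of their tested genes, 2 of 4, 0 of 2 and 1 of 2 had an unadjusted edgeR p under 0.05, beside the same 2657 of 12537. For macrophage markers the sums were 535 to 653 CPM in mTOR-/- and 660 to 739 CPM in WT, led by Adgre1 (482 and 614 CPM, edgeR adjusted p = 0.145). Of the 4 tested macrophage markers, Adgre1 was the 1 with a log2 fold change below 0, and 3 were above 0. The next most abundant, Vcam1, was at 123 CPM in mTOR-/- and 87.9 CPM in WT (log2 fold change 0.49, edgeR adjusted p = 0.0888). The sums of B cell markers were 3.32 to 6.93 CPM in mTOR-/- and 2.27 to 3.92 CPM in WT. Those of plasmacytoid dendritic cell markers were 73.3 to 105 CPM in mTOR-/- and 119 to 130 CPM in WT, with Siglech at 0. Bst2 led them, at 59.1 CPM in mTOR-/- and 91.9 CPM in WT (log2 fold change -0.64, edgeR adjusted p = 0.0367). Tcf4, the other tested gene, was at -0.09 (edgeR adjusted p = 0.856).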

How the data were processed

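RNA from 3 mTOR-/- and 3 WT M-MDSC samples was sequenced by the authors as paired-end reads. Whole-number gene counts, not normalized, were deposited for each library, beside FPKM values that the authors deposited in the same table and that served here only to derive gene lengths. For 5 of 8 receptors the length implied by FPKM matched the summed lengths of the gene's transcripts within 10 bases, so levels were computed from counts and annotated exon length. The study's methods name Bowtie2, mm10 and HTSeq, and the submitters' processing notes list HISAT2 2.0.4, StringTie 1.3.0, GRCm38 and mm9. The strand setting was not given in the sources used here. Of 36 columns of per-sample values, 24 were not used. Columns of the authors' own comparisons (fold changes and p-values) were not used. Start and end of 6 of 9 receptors equalled GENCODE M21 (GRCm38).

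Counts were tested with edgeR 4.0.16 in R 4.3.3 (quasi-likelihood F test, TMM, filterByExpr with a minimum count of 10 and a total of 15, Benjamini-Hochberg adjustment over 12537 genes, no covariate). Depth was 12317507 to 14768126 counts, and the biological coefficient of variation was 19%. The log2 CPM profiles used a prior count of 2 and the ratios a pseudocount of 0.5. DESeq2 1.42.0, edgeR's exact test, other scalings and filters, a replicate block and leaving out each library were alternatives.

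All 9 receptors were named. From each list, every DEG was named and at most 3 other genes of highest mean CPM. The 3 nearest profiles were named for each receptor that was a DEG. Symbols with several rows were taken as the row with most counts. Mtor, Lyz2, H2-Ea-ps, Ly6c2, Cd14, Relb, Fcer1a, Ms4a2, Prss34, Plcb3 and markers and ligands with no counts fell outside this rule and were named after their values were seen. The receptors and lists were chosen with earlier results of these data known. A gene and a sequence window are not reported here.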

Additional observations from a re-analysis of the deposited data

How the results depend on the processing

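Ccr7 was a DEG in all 7 alternatives that kept the 6 libraries and the fold threshold (log2 fold change 1.24 to 1.33, adjusted p 6.37e-05 to 0.0319). Leaving out 1 library gave 0 receptors called in each of the 6 fits. For Ccr7 those fits gave log2 fold changes of 0.96 to 1.44, and for Cxcr4 -0.60 to -0.49. With no fold threshold 2 receptors were called, the second being Cxcr4, and 507 genes. Over all genes, the 212 DEGs became 357 with DESeq2 and 386 with edgeR's exact test, and 114 to 229 when 1 library was left out. No pairing by replicate number was evident, since deviations of same-numbered libraries correlated at -0.0764, -0.0252 and -0.0608. These correlations run over all tested genes and cannot exclude a pairing that moves few of them. No library is known to share an animal or batch. With the replicate block, 164 genes were called, Ccr7 was at 1.33 (adjusted p = 0.0241), Cxcr4 at -0.52 (adjusted p = 0.0608) and Ccr3 turned to -0.033. Without 1 library, Ccr3 ranged from -0.74 to 0.49 and Ccr1 from -0.037 to 0.079, turning sign. The cause was not tested. Ccr3 gave no value with at least 10 counts in every library. The ratios kept their direction, ranging from -1.43 to -1.01 for Cxcr4, -1.52 to -1.01 for Cxcr2 and -0.87 to -0.47 for Ccr1 over Ccr2. Depth limits Ccr3, Cx3cr1 and Cxcr3, which held 25 counts or fewer in every library.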

Other observations

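Other receptors that guide myeloid cells were measured alongside. Of 12 receptors for formyl peptides, complement, lipids and colony-stimulating factors, all were tested and 1 was a DEG, against 1.69% of all tested genes. It was Fpr2, a formyl peptide receptor. Fpr2 had 450, 296 and 438 counts in mTOR-/- and 92, 158 and 160 in WT. Its level was 31.0 ± 7.24 CPM in mTOR-/- and 9.58 ± 2.65 CPM in WT (SD, n = 3 each; log2 fold change 1.69, SE 0.25, edgeR adjusted p = 0.00761), and it passed the adjusted p without any 1 of the 6 libraries. Csf1r, the monocyte growth factor receptor, rose by less than 2-fold (log2 fold change 0.50, edgeR adjusted p = 0.0136), as did Csf3r, the neutrophil one (0.63, edgeR adjusted p = 0.0314). Ptafr was at -0.24 (edgeR adjusted p = 0.276). The log2 fold change was above 0 for 7 of the 12 and below 0 for 5. Its median was 0.47, against 0.0049 over all tested genes.

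Of 19 genes that carry or end the receptor signal, all were tested, and 0 were DEGs by edgeR, DESeq2 or edgeR's exact test. An unadjusted edgeR p under 0.05 was found for 7 of the 19, against 2657 of all 12537 genes tested. Plcb3, a phospholipase among the 19, rose by less than 2-fold (log2 fold change 0.53, edgeR adjusted p = 0.0217). The most abundant were Gnai2, an inhibitory G protein subunit (-0.08, edgeR adjusted p = 0.719), Rac2 (-0.12, adjusted p = 0.548) and Adrbk1, a receptor kinase (0.05, adjusted p = 0.786).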
